A study of Mus musculus with 8 samples.

Results

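The 8 genes 5930412G12Rik, Rgs5, Fibin, Gm43194, Fam43a, Ripk4, Ndnf and Insm2 were examined among the 27998 genes of a single-cell count matrix from embryonic mouse cortex. They were selected on these same data, as genes with some of the highest levels in barcodes resembling Cajal-Retzius (CR) neurons relative to the rest. Their excess in those barcodes is therefore a description of how they were chosen and was not tested. The cells were Ebf2-EGFP+ cells of the cerebral cortex at E15.5, sorted by fluorescence from the strain Tg(Ebf2-EGFP)FB58Gsat and read with droplet-based single-cell RNA sequencing. The transgene reports the activity of Ebf2 regulatory sequence, so the sort takes any cortical cell that holds enough EGFP, whatever its later identity. About 8 embryos from 2 timed-pregnant mice were pooled. All 8 labelled samples belonged to 1 group and shared 1 matrix with no map from barcodes to samples, so every value comes from 1 pooled library without replicates. Intervals in brackets are exact 95% intervals and cover counting error only.

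CR neurons are early-born neurons of the cortical surface that secrete reelin, the extracellular protein encoded by Reln, which directs the layering of later-born neurons. They arise at several borders of the developing cortex, spread over it by tangential migration, and largely die after birth. A barcode was called Reln-high when it held at least 5 Reln unique molecular identifiers (UMIs, each counting 1 captured transcript) per 10000. Of 2931 barcodes kept, 472 were Reln-high (16.1%, 14.8 to 17.5%) and 2459 were other barcodes. The range from 3 to 8 Reln UMIs per 10000 held only 70 barcodes, with 16 just below the gate (4 to 5) and 7 just above it (5 to 6). The median depth was 21541.5 UMIs in Reln-high and 15267 in other barcodes, so shares of barcodes with a UMI are given after each barcode was thinned to 11000 UMIs, which left 466 and 2404 barcodes. All 10 CR markers listed (Reln, Trp73, Lhx1, Lhx5, Calb2, Ebf2, Ebf3, Nhlh2, Cxcr4 and Cdkn1a) were at least 2-fold higher in Reln-high barcodes, with a median log2 ratio of 4.35. For Reln, which is part of that count and median, the gate fixed this in advance. Of all 11288 genes with at least 100 UMIs, 7.38% were higher by that fold. Ebf2 itself, whose regulatory sequence drives the reporter, had 35.4 UMIs per 1000000 (CPM) in Reln-high and 2.47 in other barcodes. Of the Reln-high barcodes, 390 lay in the CR-like cluster, 1 of 8 clusters made without Reln and the 8 genes, and 82 lay elsewhere.

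The 8 genes fall into 4 kinds. 5930412G12Rik (chr5:128579106-128600693, minus strand) and Gm43194 (chr3:134199948-134213238, plus strand) are long intergenic noncoding RNAs in the GENCODE annotation of build GRCm38. Ndnf (chr6:65671590-65712326, plus) encodes a secreted neurotrophic glycoprotein, and Fibin (chr2:110360917-110363183, minus) encodes a secreted protein first described in fin bud development. Rgs5 (chr1:169655501-169695813, plus) encodes a regulator of G protein signalling and is best known as a pericyte marker. Ripk4 (chr16:97741933-97763787, minus) encodes a kinase with ankyrin repeats that acts in epidermal differentiation, and Fam43a (chr16:30599723-30602797, plus) encodes a protein with a phosphotyrosine interaction domain. Insm2 (chr12:55599427-55602086, plus) encodes a zinc finger transcription factor related to Insm1.

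The 3' ends of the noncoding RNAs are shown because the library reads transcripts from that end and because these genes have no protein to identify them. The last 120 bases of the longest GENCODE transcript of each are given 5' to 3', with every AATAAA in capitals, the usual signal for polyadenylation. They lie at chr5:128579106-128579225 (minus strand) and chr3:134213119-134213238 (plus strand) in GRCm38, and each held 3 such signals.
5930412G12Rik: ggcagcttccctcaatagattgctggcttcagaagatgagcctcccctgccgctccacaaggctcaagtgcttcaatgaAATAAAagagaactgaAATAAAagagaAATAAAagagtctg
Gm43194: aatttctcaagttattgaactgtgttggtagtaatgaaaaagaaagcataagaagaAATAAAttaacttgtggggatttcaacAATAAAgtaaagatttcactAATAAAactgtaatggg

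RefSeq promoter windows were matched for 5 of the 8 genes, and those of Rgs5 and Insm2 are shown because the levels of these genes parted within the Reln-high barcodes. Each is the 250 bases before the RefSeq start in GRCm38.p6, on the plus strand, at chr1:169655251-169655500 for Rgs5 and at chr12:55598667-55598916 for Insm2. Neither these nor the windows of Fibin, Gm43194 (Gm30648 in RefSeq) and Fam43a held, on either strand, an exact match to the motifs searched. These were the palindromic EBF motif and the letters TAATTA (a homeodomain core), CAGCTG (an E-box) and TATAAA. Near matches and variant forms were not searched, so the windows may hold them. Among all 32851 windows, 0.78% held the EBF motif, 4.84% TAATTA, 13% CAGCTG and 12.4% TATAAA, so most windows lack each of them. No part is in capitals since none matched exactly.
Rgs5: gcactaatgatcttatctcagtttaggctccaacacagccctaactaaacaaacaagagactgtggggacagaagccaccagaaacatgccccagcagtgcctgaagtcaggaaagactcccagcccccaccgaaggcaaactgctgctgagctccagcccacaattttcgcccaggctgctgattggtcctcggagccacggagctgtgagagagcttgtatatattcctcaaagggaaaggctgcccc
Insm2: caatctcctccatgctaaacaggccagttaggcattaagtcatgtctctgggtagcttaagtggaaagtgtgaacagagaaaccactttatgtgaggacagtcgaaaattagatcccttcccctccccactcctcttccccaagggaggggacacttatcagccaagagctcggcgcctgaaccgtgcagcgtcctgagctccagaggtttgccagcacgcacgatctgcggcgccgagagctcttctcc

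Across the matrix, 11288 genes had at least 100 UMIs, and 833 of them (7.38%) were at least 2-fold higher in Reln-high barcodes while 625 (5.54%) were at least 2-fold lower. The median log2 ratio of all these genes was 0.11. All 8 chosen genes were past 2-fold, as their choice fixed, with a median log2 ratio of 5.28. They held ranks 1, 2, 6, 7, 9, 12, 14 and 35 by this ratio, so the list is not simply the leading 8. Ggt5, Zic5 and Zic2 stood at ranks 3 to 5, Clec10a at 8, E330013P04Rik and Gdf5 at 10 and 11, and Tnfaip8 at 13. Between Ripk4 at 14 and Fam43a at 35 stood 20 other genes, among them Lhx1 at 20, Reln itself at 32 and Trp73 at 34. Dhrs3, Angptl2, Cacna2d2, Npnt and Eva1c followed. Ranks depended on the count minimum. With genes of at least 20 UMIs admitted, 5930412G12Rik stood at 2, Ndnf at 3, Fibin at 11, Insm2 at 12, Gm43194 at 15, Rgs5 at 20, Ripk4 at 25 and Fam43a at 54.

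Of the noncoding RNAs, 5930412G12Rik had the highest ratio among the 11288 genes with at least 100 UMIs. It had 260 UMIs in Reln-high barcodes (21.4 CPM) against 15 in all other barcodes (0.35 CPM), a log2 ratio of 5.92 (5.17 to 6.78). Gm43194 had 33.7 against 0.90 CPM, from 408 and 38 UMIs, with a log2 ratio of 5.23 (4.75 to 5.75). Both were sparse within Reln-high barcodes. After thinning, 20.4% held 5930412G12Rik (16.8 to 24.3%) and 31.5% held Gm43194 (27.3 to 36.0%), with a median of 0 and a highest value of 4 UMIs for each.

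Ndnf had 2058 UMIs in Reln-high barcodes (169.7 CPM) and 133 in the others (3.13 CPM), a log2 ratio of 5.76 (5.51 to 6.02). It was in 63.5% of thinned Reln-high barcodes (59.0 to 67.9%) and 3.49% of the others, with a median of 1, a 90th percentile of 4 and a highest value of 10 UMIs in the former. Fibin had 1212 and 101 UMIs, or 99.97 and 2.38 CPM, a log2 ratio of 5.39 (5.10 to 5.70). It was in 42.3% of thinned Reln-high barcodes (37.7 to 46.9%) with a median of 0, a 90th percentile of 3 and a highest value of 12.

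Of the signalling genes, Rgs5 had 21.3 against 0.59 CPM, from 258 and 25 UMIs, a log2 ratio of 5.18 (4.58 to 5.83), and was in 15.45% of thinned Reln-high barcodes (12.3 to 19.1%). Ripk4 had 21.5 against 0.64 CPM, from 261 and 27 UMIs, a log2 ratio of 5.08 (4.51 to 5.71), and was in 19.1% of them (15.6 to 23.0%). For Fam43a the levels were 26.5 and 1.06 CPM, from 321 and 45 UMIs, the log2 ratio was 4.64 (4.19 to 5.13), and the share was 19.7% (16.2 to 23.7%). All 3 had a median of 0 and highest values of 3 to 5 UMIs after thinning. The transcription factor gene Insm2 had 45.5 against 1.13 CPM, from 552 and 48 UMIs, a log2 ratio of 5.33 (4.90 to 5.79), and was in 38.4% of thinned Reln-high barcodes (34.0 to 43.0%), with at most 7 UMIs. At full depth it was in 58.9% of Reln-high barcodes, Fibin in 54.4% and Ndnf in 76.1%. In order of ratio, most neighbours could not be told apart by their intervals. The interval of Fam43a lay below those of 5930412G12Rik and Ndnf but overlapped the interval of each of the other 5 genes.

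**Figure D1:**
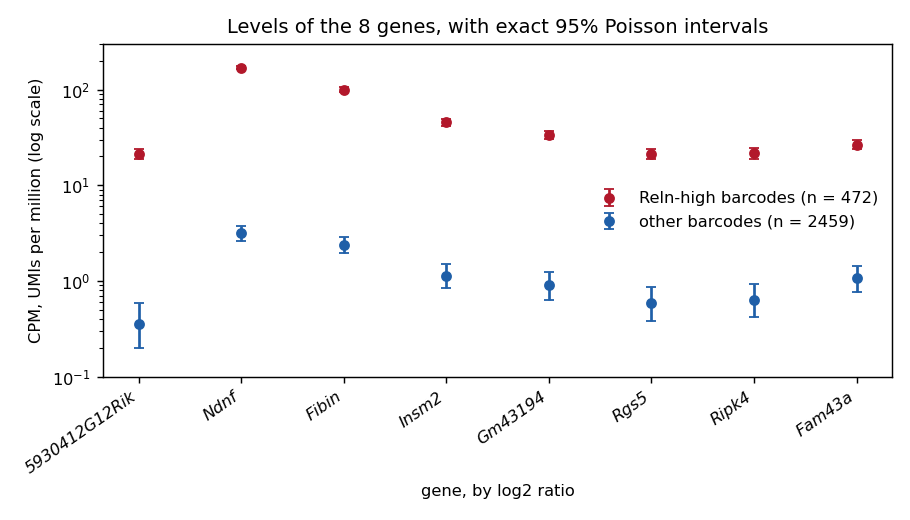
Levels of the 8 genes in CPM on a log axis, in order of log2 ratio, in 472 Reln-high barcodes (red) and 2459 other barcodes (blue), with exact 95% Poisson intervals. Every red point lies above 20 and every blue point below 4 CPM.

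The gate divides a graded quantity, so levels were also read along Reln itself. Because Reln and these genes share the barcodes, this too is a description. Ndnf had 3.18 CPM in the 857 barcodes with no Reln UMI, 68.7 in the 27 barcodes with 6 to 8 Reln UMIs per 10000, 120.5 in the 95 with 10 to 15, 212 in the 168 with 20 to 30 and 286 in the 44 with 30 or more. Fibin went from 1.89 CPM without Reln to 30.4, 46.6, 133.8 and 200.9 in the same steps. Insm2 levelled off, with 60.2 CPM from 15 to 20, 46.7 from 20 to 30 and 52.6 from 30 upward. Every gene but Insm2 had its highest value from 30 upward. The share of barcodes in the CR-like cluster also rose, from 8 of 27 (6 to 8) and 63 of 95 (10 to 15) to 44 of 44 (30 or more). Its part in these levels was not tested. The share of thinned barcodes with at least 3 of the 8 genes was 0% in every step below 4 Reln UMIs per 10000, 1 of 15 barcodes from 4 to 5, 0 of 6 from 5 to 6, 11.1% from 6 to 8, 55.7% from 20 to 30 and 84.1% from 30 upward. Just below the gate (4 to 5) Fibin had 24.7 and Insm2 17.6 CPM, and just above it (5 to 6) 22.7 and 5.68, each step resting on few UMIs.

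**Figure D2:**
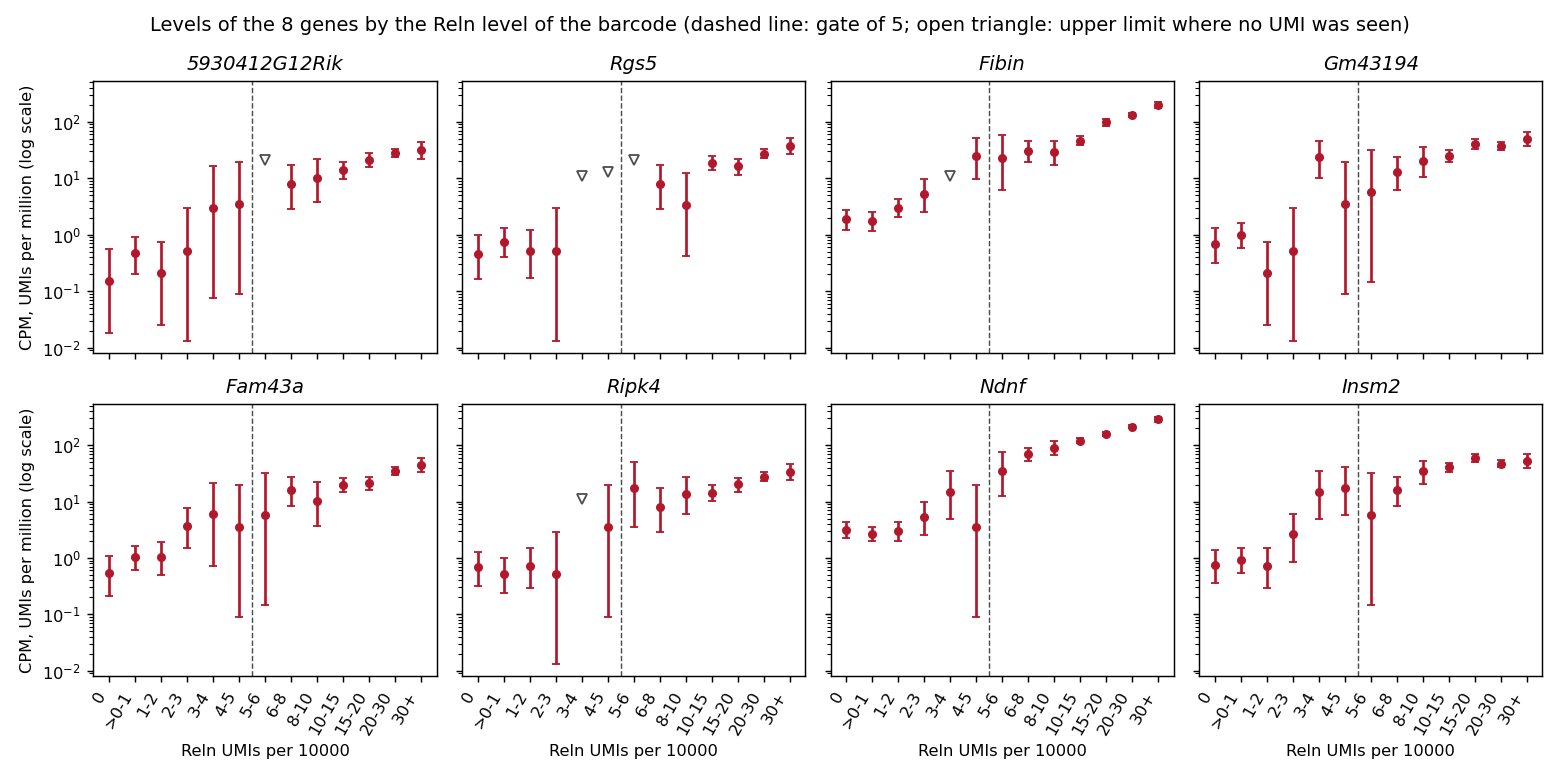
Level of each gene in CPM (log axis) by the Reln level of the barcode in UMIs per 10000, with exact 95% Poisson intervals. The dashed line marks the gate of 5, and open triangles give the upper limit of steps without a UMI. Every gene but Insm2 is highest in the last step, while Insm2 stays between 46.7 and 60.2 over the last 3 steps.

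Single barcodes rarely held most of the 8 genes. After thinning, 45 Reln-high barcodes held none of them, 83 held 1, 115 held 2, 94 held 3, 85 held 4, 33 held 5, 10 held 6 and 1 held 7, with a median of 2. At least 1 gene was seen in 90.3% (87.3 to 92.9%) and at least 5 in 9.44% (6.94 to 12.5%). At full depth, 36.2% held at least 5. Of the thinned other barcodes, 2166 held none, 217 held 1, 20 held 2 and 1 held 3, so that 0.87% (0.54 to 1.33%) held at least 2. Of the 45 Reln-high barcodes with none, 19 lay in the CR-like cluster and 13 in a cluster led by Snhg11, and their median Reln level was 12.1 UMIs per 10000. The median number of genes was 3 in Reln-high barcodes of the CR-like cluster and 1 in those of other clusters.

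**Figure D3:**
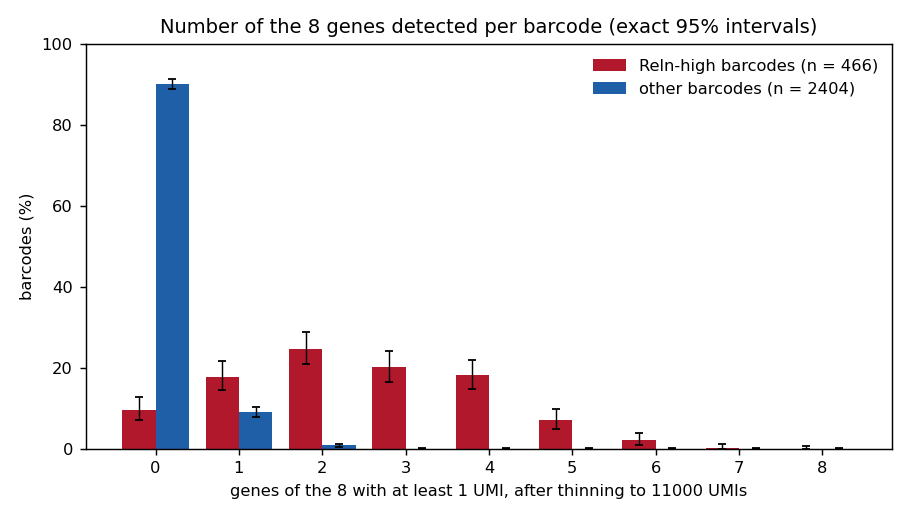
Percent of thinned barcodes by the number of the 8 genes detected, for 466 Reln-high (red) and 2404 other barcodes (blue), with exact 95% intervals. Reln-high barcodes centre on 2 genes, and 2166 of the other barcodes hold none.

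Pairs of the genes differed in how they were shared among thinned Reln-high barcodes. The Pearson correlation of log UMIs was above 0 for 22 of 28 pairs, with a median of 0.07, and these pairs share library and gate. In the 286 thinned barcodes of sub-clusters 1 and 3 alone, which are described below, it was above 0 for 16 pairs and below 0 for 12, with a median of 0.04. The highest was that of the secreted factors Fibin and Ndnf, at 0.37. Ndnf was in 82.2% of barcodes with Fibin and in 49.8% of those without. Rgs5 with Fibin followed at 0.21, and Fibin was in 65.3% of barcodes with Rgs5 and in 38.1% without. Fibin had negative values with Gm43194 (-0.13) and with Insm2 (-0.12). Gm43194 was in 27.4% of barcodes with Fibin and in 34.6% without, and Insm2 was in 49.0% of barcodes with Gm43194 and in 33.5% without. For this last pair the shares were 48.8% and 45.4% in sub-clusters 1 and 3 alone, with a correlation of -0.01. Most of these correlations are weak in such sparse counts and are given as values alone.

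The spread within Reln-high barcodes was read as the variance of the thinned UMIs over their mean, which is 1 for counting noise alone. It was 1.22 for 5930412G12Rik, 1.35 for Gm43194, 1.46 for Fam43a, 1.47 for Rgs5, 1.51 for Insm2 and 1.54 for Ripk4. It was higher for Ndnf, at 2.02, and for Fibin, at 2.83, while Reln had 3.65. Mean thinned UMIs were 1.71 for Ndnf, 1.03 for Fibin and 21.4 for Reln. For the rest they ran from 0.21 for Rgs5 to 0.59 for Insm2. At a fixed relative spread this value rises with the mean, so it ranks neither the genes nor the sub-clusters by spread. In the largest of the sub-clusters described next, the value was 2.70 for Fibin, 1.53 for Ndnf and 1.26 for Insm2, and in the smallest it was 1.08, 1.16 and 1.56.

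Reln-high barcodes were split into 3 sub-clusters without use of Reln or the 8 genes. Sub-cluster 1 had 210 barcodes and was led by Cxcl12 and Gdf5, sub-cluster 2 had 184 and was led by Crym, Nell2 and Lpl, and sub-cluster 3 had 78 and was led by Cdkn1a, Serpine2, C1ql1 and Rspo3. The 8 genes parted between sub-clusters 1 and 3. Fibin had 157 CPM in sub-cluster 1 and 17.9 in sub-cluster 3, a log2 ratio of -3.13 (-3.81 to -2.52). Ndnf had 230.8 and 33.4 CPM, a log2 ratio of -2.79 (-3.28 to -2.34). Rgs5 had 32.6 and 4.07 CPM, the latter from 5 UMIs, a log2 ratio of -3.00 (-4.64 to -1.75). Fam43a was lower by less, with 37.7 and 17.9 CPM and a log2 ratio of -1.07 (-1.78 to -0.43).

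Insm2 and Gm43194 went the other way. Insm2 had 54.1 CPM in sub-cluster 1 and 105.9 in sub-cluster 3, a log2 ratio of 0.97 (0.65 to 1.28), and was in 41.6% and 61.0% of their thinned barcodes. Gm43194 had 47.7 and 65.2 CPM, a log2 ratio of 0.45 (0.06 to 0.82). Ripk4 had a log2 ratio of -0.91 (-1.62 to -0.26), and the interval of 5930412G12Rik at -0.55 (-1.23 to 0.07) held 0. Without barcodes above 25000 UMIs, 5930412G12Rik had -0.72 (-1.43 to -0.07). Gm43194 then had 0.37 (-0.05 to 0.78), an interval that held 0. Thus 4 of the 8 genes were at least 2-fold lower in sub-cluster 3 and none was 2-fold higher, while of 6626 genes tested there 184 (2.78%) were lower and 75 (1.13%) higher by that fold, with a median log2 ratio of -0.04. For comparison, Reln had -0.49, Trp73 0.08, Ebf2 -1.88, Lhx1 1.40, Rspo3 2.18 and Cdkn1a 2.65. A split of Reln-high barcodes in the CR-like cluster by their summed Rspo3 and Cdkn1a UMIs, chosen after the data were seen, gave smaller differences for Fibin (-2.08), Ndnf (-1.65), Rgs5 (-1.86) and Ripk4 (-0.07), larger ones for Gm43194 (1.19) and Insm2 (1.01), and 0.03 (-0.53 to 0.56) for 5930412G12Rik. By that split 4 genes were at least 2-fold lower and 2 at least 2-fold higher.

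In sub-cluster 2 all 8 genes were lower than in sub-cluster 1, with log2 ratios from -0.63 for Ndnf to -1.56 for Gm43194, and Reln was lower too, at -0.72. The share of all genes higher or lower was not computed for this contrast. Whether such counts of genes are unusual there is thus not known. The barcodes of sub-cluster 2 were deep, with a median of 33508.5 UMIs against 21076 and 15472 in sub-clusters 1 and 3. Of the 6 deep-layer projection neuron markers listed, Fezf2 (log2 ratio 2.81), Sox5 (2.89) and Bcl11b (2.11) were at least 2-fold higher there than in sub-cluster 1. Foxp2 had 2.10 (1.11 to 3.24), from 54 and 10 UMIs, below the minimum of 100 for a fold call. Tle4 had 0.51 and Tbr1 -0.46. The summed level of the 6 markers was 621 CPM in sub-cluster 1, 961 in sub-cluster 2 and 685 in sub-cluster 3. After thinning, 17.2% of the barcodes of sub-cluster 2 (12.01 to 23.5%) held Y-linked UMIs together with 5 or more of Xist, against 3.83% (1.67 to 7.40%) and 2.60% (0.32 to 9.07%) in the others. The part of pairs of cells in these levels was not tested. Without sub-cluster 2 the median log2 ratio of the 8 genes over other barcodes was 5.80, and the share of Reln-high barcodes with at least 5 genes was 14.0%.

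**Figure D4:**
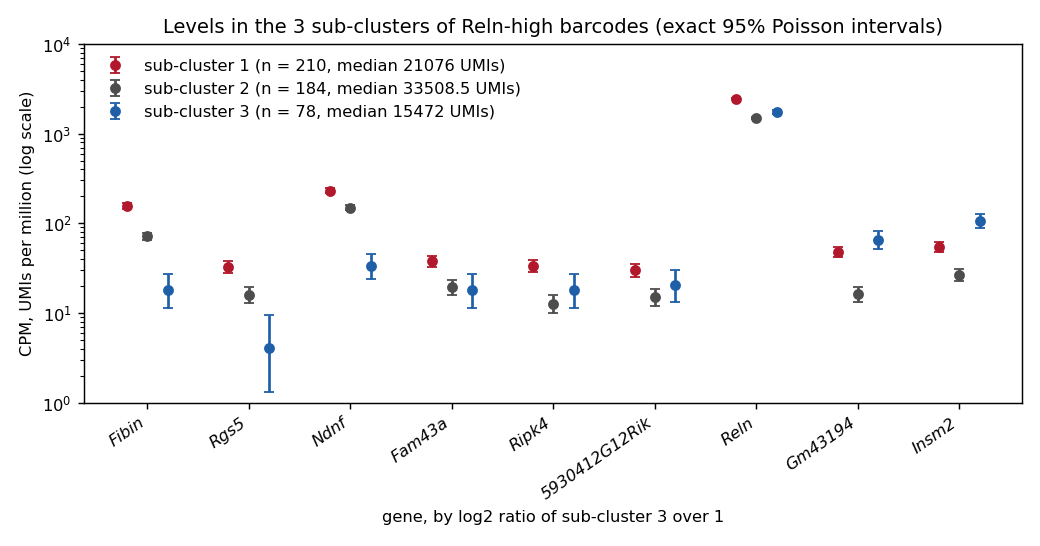
Levels in CPM (log axis) of the 8 genes and Reln in sub-clusters 1 (red, 210 barcodes), 2 (grey, 184) and 3 (blue, 78) of the Reln-high barcodes, in order of the log2 ratio of sub-cluster 3 over 1, with exact 95% Poisson intervals. Fibin, Rgs5 and Ndnf are lowest in sub-cluster 3, and Insm2 and Gm43194 are highest there.

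Outside the gate the 8 genes left traces. The level in other barcodes was between 1.65% of the Reln-high level for 5930412G12Rik (0.91 to 2.77%) and 4.004% for Fam43a (2.86 to 5.48%), with a median of 2.57%, while that of Reln was 3.90%. Most traces were lone UMIs. Barcodes with 1 UMI held every outside UMI of 5930412G12Rik and Rgs5 and 97.0% of those of Ndnf. The share was 79.2% for Fibin, 78.9% for Gm43194 and 72.9% for Insm2. In droplet data, free RNA can place UMIs in cells that do not express a gene, and its part here was not tested.

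By cluster, the intervals of most traces overlapped. Insm2 was at 9.68% of its Reln-high level (4.97 to 17.0%, 12 UMIs) in the 142 other barcodes of the Snhg11-led cluster, against 1.17% (0.24 to 3.45%, 3 UMIs) in the 219 of the Neurod1-led cluster. In the former, 2 barcodes gave 6 of the 12 UMIs, and without them, an alternative chosen after the data were seen, the level was 4.90% (1.79 to 10.7%). Ripk4 was at 8.27% (3.92 to 15.46%, 10 UMIs) in the Neurod1-led cluster, and Fam43a at 8.33% (4.26 to 14.7%, 12 UMIs) in the 337 other barcodes of the Caln1-led cluster. In the other barcodes of the Snhg11-led cluster Lhx5, a LIM homeodomain factor of CR neurons, was at 37.2% (32.0 to 43.0%), Trp73 at 10.7%, Reln at 5.29% and Nhlh2 at 5.12%. The 35 Reln-high barcodes of that cluster had Lhx5 at 88.8%, Trp73 at 62.3%, Reln at 58.2% and Nhlh2 at 46.6% of the level over all Reln-high barcodes. Insm2 was at 67.5% there (40.9 to 105.3%), Ripk4 at 35.7%, Ndnf at 29.0% (19.8 to 41.0%) and Gm43194 at 27.4%. Lower still were 5930412G12Rik at 21.5%, Fam43a at 17.4% and Fibin at 15.4% (7.36 to 28.4%). These barcodes held no Rgs5 UMI, which allows a level of up to 26.8%. Their median depth was 13312 UMIs.

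Only 6 other barcodes held 3 or more UMIs of any of the genes, and 2 of these lay in the CR-like cluster, namely those with 6 Fibin and with 6 Gm43194 UMIs. Fibin reached 7 and 6 UMIs in 2 of them, 1 barcode held 6 Gm43194 and 3 Insm2 UMIs, a further 2 held 3 Insm2 UMIs and 1 held 3 Fam43a UMIs. Of these 6, 4 had at least 2 Reln UMIs per 10000, as did 5.94% of all other barcodes, and none held 5 or more Xist UMIs together with 2 or more Y-linked ones. The 21 thinned other barcodes with at least 2 of the genes had a median of 0.78 Reln UMIs per 10000 against 0.64 for all other barcodes, 4 of them (19.0%, 5.45 to 41.9%) had at least 2 per 10000, and 3 lay in the CR-like cluster, which held 6 of the 2459 other barcodes.

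**Figure D5:**
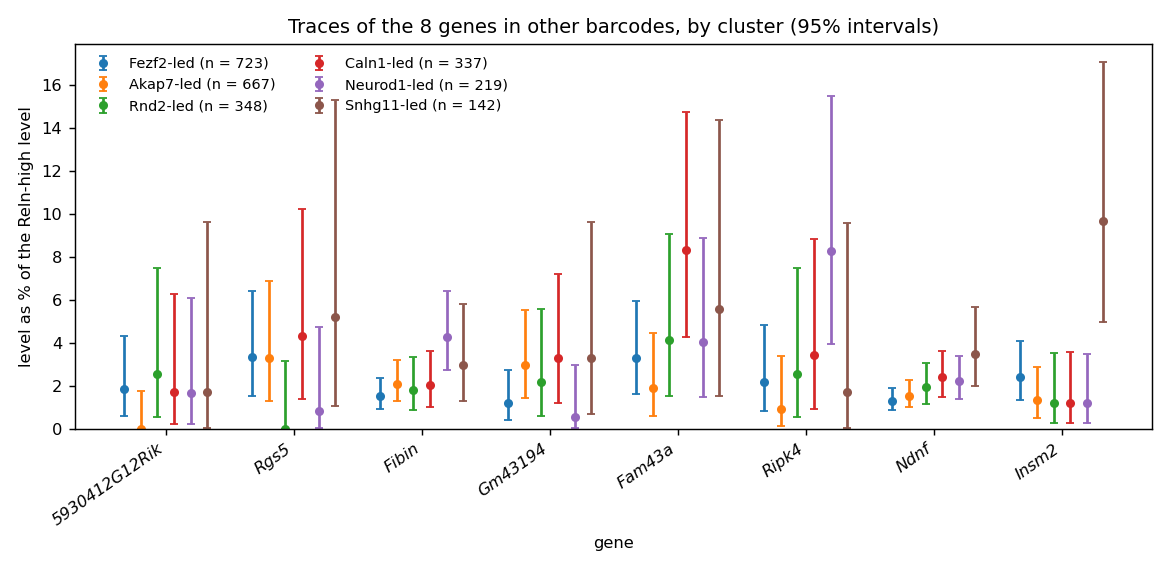
Level of each gene in barcodes outside the Reln gate, as percent of its Reln-high level, in 6 clusters named by their leading gene, with 95% intervals from the UMI counts. Most points lie between 0 and 6%, and Insm2 in the Snhg11-led cluster reaches 9.68%.

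Genes listed for the 8, mainly relatives and partners, were also compared, and their counts stand beside 7.38% higher and 5.54% lower among all genes tested. RGS proteins speed the hydrolysis of GTP by G protein alpha subunits. Of 13 paralogs of Rgs5 tested, none was at least 2-fold higher in Reln-high barcodes and 3 were lower, namely Rgs6 (-1.64), Rgs9 (-1.87) and Rgs16 (-1.08), with a median of -0.43 where that of all genes was 0.11. Of 11 alpha subunits tested, none was higher and 2 were lower, Gnai1 (-1.02) and Gnal (-1.48). Of 5 FGF receptor and Nell genes tested beside Ndnf, 4 were lower and none was higher, with log2 ratios of -1.11 for Fgfr1, -1.38 for Fgfr2, -2.43 for Fgfr4 and -1.82 for Nell2.

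Of 4 RIP kinase and partner genes tested, Ripk2 was higher (1.28, 0.68 to 1.86), from 43 and 62 UMIs. Among 7 relatives and partners of Insm2, Insm1 (-1.49) and the corepressor gene Rcor2 (-1.30) were lower and none was higher. Fam43b, the paralog of Fam43a, was lower, at -1.91 (-2.34 to -1.51). Of 5 genes of the p53 family list, Trp73 (4.65) and Cdkn1a (2.37) were higher, while Trp53 had -0.28 and Mdm2 0.47. Both higher genes were also on the list of CR markers.

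Markers of cells in which some of these genes are better known were also read. The 9 pericyte and mural markers together had 3.30 CPM in Reln-high barcodes (2.36 to 4.49, 40 UMIs) and 1.08 in the others (0.79 to 1.45, 46 UMIs). Cspg4 gave 23 of the 40 UMIs, Pdgfrb gave 6, and Anpep was at 0. Reln-high barcodes with Rgs5 had 2.71 CPM of these markers (1.40 to 4.74) and those without Rgs5 had 3.64 (2.42 to 5.26). The 25 other barcodes with Rgs5 held none, which allows up to 7.06 CPM. The 10 keratinocyte markers, listed because Ripk4 acts in those cells, had 13.6 CPM in Reln-high (11.6 to 15.9) and 4.64 in other barcodes (4.02 to 5.34), a log2 ratio of 1.55 (1.24 to 1.86), and their part in the Ripk4 level was not tested. Perp, with a log2 ratio of 2.11, gave 123 of the 165 UMIs in Reln-high barcodes, and Krt5 and Cdh1 were at 0. The 9 interneuron markers, listed because Ndnf later marks interneurons of layer 1, summed to 28.0 CPM in Reln-high barcodes and 106.5 in the others, where Npy gave 3602 of 4521 UMIs, and Lhx6 was at 0 in the former.

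Genes beside the 8 on the chromosome were compared in the same way. Of 11 nearest neighbours within 500 kb with at least 100 UMIs, 2 were at least 2-fold higher, 1 was lower, and the median log2 ratio was 0.57, where 7.38% of all genes tested were higher, 5.54% were lower and the median was 0.11. The higher ones were Cxxc4, 23.2 kb from Gm43194, at 2.06 (1.80 to 2.32), and Xxylt1, 352.3 kb from Fam43a, at 1.45 (0.94 to 1.95). Nuf2, a gene of the kinetochore 124 kb from Rgs5, was lower, at -1.62 (-2.53 to -0.83). Rgs4, the paralog 45.7 kb from Rgs5, had 0.87 (0.78 to 0.96). Cxxc4 was in 20.4% of thinned Reln-high barcodes with Gm43194 and in 19.7% of those without. Fzd10, a Wnt receptor gene, starts 0.15 kb from 5930412G12Rik on the other strand and gives it the RefSeq name Fzd10os. It was chosen after its values were seen and lay below the count minimum, with 54 UMIs in Reln-high and 5 in other barcodes, a log2 ratio of 5.24 (3.93 to 6.92). Fzd10 was in 7.37% of thinned Reln-high barcodes with 5930412G12Rik (3.01 to 14.6%) and in 3.77% of those without (2.08 to 6.25%).

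Likeness of pattern was measured as the Pearson correlation of log2 levels over 10 groups, the 3 sub-clusters and 7 other clusters of the 1 library, among 10122 genes with at least 200 UMIs. These groups differ in depth. The sub-clusters are all Reln-high and the 7 clusters hold mainly other barcodes, which is the contrast by which the genes were chosen. High correlations are thus largely fixed by that choice and by taking the most alike of 10122 genes. They are given as values alone. The most alike were Gpc1 (0.99) and Msi2 for 5930412G12Rik, Cd274 (0.97) and Glb1 for Rgs5, Eva1c (0.98) and Fkbp9 for Fibin, and Zic5 (0.98) and E330013P04Rik for Gm43194. For Fam43a they were Msi2 and Fkbp9 (both 0.99), for Ripk4 Bmp5 and P2rx5 (both 0.99), for Ndnf Slc7a10 and Pla2g12a (both 0.97), and for Insm2 Lhx1os and Zic2 (both 0.99).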

How the data were processed

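Droplet-based single-cell RNA sequencing was performed by the authors on sorted Ebf2-EGFP+ cells, and per the labels about 3000 cells were processed. The deposited matrix holds raw UMI counts for 27998 genes and 3000 barcodes. The submitters' processing notes name Cell Ranger 2.0.0, Seurat 2.0 and build mm10. Barcodes held 10718 to 76690 UMIs (median 15832, 57180867 in all).

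The 8 genes and all lists were chosen with earlier results of these data known. Barcodes needed 1000 genes and at most 10% mitochondrial UMIs, which none failed. The automatic Scrublet threshold (scanpy 1.11.5) called 2 doublets. In its place a fixed share, the top 2.3% of scores (69 barcodes, 33 of them Reln-high), was removed as likely doublets. Levels were summed UMIs per 1000000 (CPM), which count transcript ends and were not divided by gene length. Ratios were compared by exact conditional binomial intervals, levels by Poisson and shares by Clopper-Pearson intervals, all at 95%. PCR duplicates are collapsed by UMIs. Fold calls needed 2-fold and genes with at least 100 UMIs in the barcodes compared. K-means (scikit-learn 1.9.0) on 20 components of 2000 variable genes gave 8 clusters, and 3 sub-clusters of Reln-high barcodes. A cluster was named only with at least 3 of its fixed markers, at least 1 of them among its 10 leading genes, the latter condition being set after the data were seen, and other clusters are called by their leading gene. The Snhg11-led cluster passed 6 of 9 interneuron markers at low counts and stayed unnamed. Xist with Y-linked UMIs was read as at least 5 with at least 2 at full depth. With 1 library no test was possible, and none was run.

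Genes named are the 8 genes, Reln, genes ranked between them and up to 5 after, genes of the fixed lists, the nearest tested gene on each side within 500 kb, and for each gene the 2 most alike in pattern. Other genes named lead a cluster or sub-cluster, or were chosen after their values were seen. Of the gene IDs, 27645 were found in GENCODE M21. Ratios were checked on simulated counts, where all 200 genes changed 4-fold were recovered (100%). These genes were drawn from those with many UMIs, and their counts were Poisson without spread between barcodes. The check therefore covers the computation alone. Alternatives were other gates, the CR-like cluster in place of the gate, other filters and no thinning.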

Additional observations from a re-analysis of the deposited data

How the results depend on the processing

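No paired analysis was possible because barcodes carry no sample or replicate number. Where values moved, the cause was not tested unless stated. The alternatives for sub-clusters were chosen after seeing the data.

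The Reln-high share was 14.2% with a gate of 10 Reln UMIs per 10000, 13.5% with the CR-like cluster in place of the gate, 11.4% without barcodes above 25000 UMIs and 14.7% without those with Xist and Y-linked UMIs. With the CR-like cluster, the median log2 ratio of the 8 genes was 4.79 and the level outside was 3.61% of that inside. The share of other barcodes with at least 2 of the genes was 1.67% with the gate of 10, 1.62% with the cluster and 1.46% at full depth, where more UMIs were read per barcode. The share of Reln-high barcodes with at least 5 genes was 36.2% at full depth, again by depth. Without sub-cluster 2 it was 14.0%, and the median log2 ratio was 5.80. Under the other alternatives run, these 5 summaries stayed within their intervals.

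Of 64 values of the log2 ratios of single genes, 54 stayed within their interval, 1 moved higher and 9 lower, from 4.16 to 6.08, and none changed sign. Of 64 dispersions 57 stayed within their interval, a chi-square interval for a variance. That interval assumes normally distributed values, which these sparse counts are not, so this count is a rough guide only. At full depth, where more UMIs were read, the dispersion was 1.49 for 5930412G12Rik, 1.86 for Rgs5, 5.78 for Fibin, 2.22 for Fam43a, 1.84 for Ripk4 and 5.64 for Ndnf, and without barcodes above 25000 UMIs it was 1.80 for Ripk4. The number of genes at least 2-fold lower in sub-cluster 3 was 4 under each of 3 alternatives, the number at least 2-fold higher was 2 in place of 0 with the split by Rspo3 and Cdkn1a UMIs, and of 24 single ratios 20 stayed and 4 moved higher. No barcode failed the main filter. Genes seen in few UMIs, such as Rgs5 in sub-cluster 3, are limited by depth, and the design gives no spread between embryos.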
